A study of Mus musculus with 17 samples.

Results

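The 10 genes described here act in meiosis or in germ cells: *Stra8*, *Rec8*, *Sycp1*, *Sycp3*, *Hormad1*, *Dazl*, *Ddx4*, *Mael*, *Mov10l1* and *Tex101*. They were taken by symbol from an RNA-seq table of 54532 mouse genes, in which each of the 10 is listed once. All 10 passed the filter on low values, which kept 21871 genes for testing. The question behind the libraries was whether *Usb1*, which trims the oligo(U) tail of the U6 snRNA, is needed for the self-renewal and the pluripotency of embryonic stem cells.

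Wild-type R1/E cells, a mouse embryonic stem cell line, were compared with *Usb1* knockout cells of the same line at day 0, 1 and 3 of treatment with retinoic acid (RA). Day 0 cells had received no RA. There were 17 libraries from separate biological replicates, 2 for untreated wild-type cells and 3 for every other group. The knockout cells were 1 line, KO-1, made with CRISPR/Cas9, and a difference between clones cannot be told apart from an effect of the knockout. *Usb1* itself was at 32.0 to 56.9 TPM (transcript abundance scaled for gene length and library size) in the wild-type libraries and at 14.7 to 21.4 TPM in the knockout libraries. *Usb1* RNA was therefore lower but still present in the knockout. The paper reports that the mutant RNA of KO-1 would encode only the first part of the Usb1 protein. Its RNA blot showed a longer U6 snRNA in this line. The RNA level alone thus does not give the level of working protein. The RA dose is not given in the sources used here.

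Between 15404379 and 17300189 reads on genes were recovered from each library. Wild-type replicate 1 at day 0 had only 239 genes of 1 read and knockout replicate 1 at day 3 had 1224, against 1352 to 2467 in the other libraries. Leaving out both changed the number of the 10 genes called in none of the 12 comparisons, but it left untreated wild-type cells with 1 library, which was assumed to vary like the other groups. The summed TPM of 7 embryonic stem cell markers, among them *Pou5f1* and *Nanog*, was 5538 to 5986 at day 0. It was 317 to 362 in wild-type cells and 520 to 595 in knockout cells at day 3. Germ cell and meiosis genes outside the 10 ranged widely: *Nanos2* and *Spo11* were at most 0.138 and 0.705 TPM, *Dmc1* was at 4.29 to 17.5 TPM and *Stag3* at 49.4 to 156 TPM. In bulk libraries like these, fewer cells that express a gene and less RNA per cell cannot be told apart.

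Meiosis is the pair of cell divisions that makes haploid gametes from germ cells. In the gonad, RA starts this programme by switching on *Stra8*, and the products of genes such as *Rec8*, *Sycp1*, *Sycp3* and *Hormad1* then build the chromosome axes and the synaptonemal complex that holds homologous chromosomes together. *Dazl* and *Ddx4* encode RNA-binding proteins of germ cells, *Mael* and *Mov10l1* act with PIWI-interacting RNAs (piRNAs) against transposons, and *Tex101* encodes a surface glycoprotein of germ cells. In embryonic stem cells many germline genes are held down by the Polycomb complex PRC1.6, whose subunits bind E-box and E2F sequences, and by DNA methylation.

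Promoter windows of all 10 genes were found in the RefSeq table for GRCm38.p6, which covers 250 bases before to 50 bases after the transcript start of 27025 genes. They were searched on both strands for half-sites of the RA receptors (the sequence AGGTCA, its variant GGGTCA, the variant AGTTCA and the variant GGTTCA), for direct repeats of these with 1, 2 or 5 bases between, for the E-box CACGTG and for the E2F sequence TCCCGC. *Stra8* had AGGTCA at 2 places. They are printed because *Stra8* had the largest response of the 10 genes at day 1 of RA in both genotypes. Both lie in an annotated exon of the gene, on chromosome 6, and the capitals mark the half-site:
Stra8, chr6:34920742-34920771, plus strand: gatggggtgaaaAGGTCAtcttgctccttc
Stra8, chr6:34920898-34920927, plus strand: gcctggggtaccAGGTCAgttttttacctg

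The half-sites started 194 and 38 bases before the RefSeq transcript start, which lies inside the annotated gene. AGGTCA was also found in the windows of *Hormad1* and *Sycp3*, and 16.0% of all windows hold it. GGGTCA was found in that of *Hormad1* and in 13.5% of all windows. The variant AGTTCA was found in none of the 10 windows and in 14.02% of all windows, and GGTTCA in none and in 10.43%. No direct repeat was found in the 10 windows. The shares of all windows with a direct repeat were 0.23%, 0.26% and 0.1% for 1, 2 and 5 bases between.

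The E-box was found in 6 of the 10 windows (*Ddx4*, *Hormad1*, *Mael*, *Mov10l1*, *Sycp1* and *Sycp3*), at 8 places, and in 7.24% of all windows. *Hormad1* and *Sycp3* each held it at 2 places. These 2 genes are shown upstream of their first exon, as genes with 2 E-boxes that were also lower at day 3 than at day 1 in each genotype. *Dazl* and *Stra8* were also lower at day 3 than at day 1 and held no E-box. *Ddx4*, *Mael*, *Mov10l1* and *Sycp1* held the E-box and were not called between these days. Of these, *Mov10l1* was lower at day 3 in each genotype, by under 2-fold. The capitals mark the E-box, the half-site AGGTCA, the half-site TGACCC, which reads GGGTCA on the other strand, and GCGGGA, which is TCCCGC on the other strand:
Hormad1, chr3:95559427-95559676, plus strand: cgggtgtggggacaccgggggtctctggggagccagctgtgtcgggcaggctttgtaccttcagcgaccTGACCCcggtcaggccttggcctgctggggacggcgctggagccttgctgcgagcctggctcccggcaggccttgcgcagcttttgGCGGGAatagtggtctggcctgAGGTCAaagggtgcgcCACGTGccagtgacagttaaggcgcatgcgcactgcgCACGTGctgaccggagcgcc
Sycp3, chr10:88459337-88459568, plus strand: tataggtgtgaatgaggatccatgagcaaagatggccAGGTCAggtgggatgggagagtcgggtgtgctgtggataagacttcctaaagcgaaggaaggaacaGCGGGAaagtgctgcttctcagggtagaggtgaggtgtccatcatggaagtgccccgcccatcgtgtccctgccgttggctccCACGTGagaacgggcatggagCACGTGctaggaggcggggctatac

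The E-boxes of the other 4 genes are shown for comparison, with the motif in capitals, and the gene's own strand is printed in each line:
Ddx4, chr13:112652322-112652351, minus strand: ggcgtccgcccgCACGTGcagccgtttaag
Mael, chr1:166238950-166238979, minus strand: taccaggcctacCACGTGacaatccccgcc
Mov10l1, chr15:88982744-88982765, plus strand: ccttCACGTGctaaccgccaac
Sycp1, chr3:102936177-102936206, minus strand: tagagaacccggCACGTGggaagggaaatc

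The E2F sequence was found in 6 of the 10 windows (*Rec8*, *Sycp1*, *Sycp3*, *Ddx4*, *Mael* and *Hormad1*) and in 20.0% of all windows. *Dazl* and *Tex101* held none of the motifs. The windows of *Tex101* and *Stra8* lie wholly inside the annotated genes, and all 300 bases of the *Stra8* window are in exons. Those of *Rec8*, *Ddx4* and *Mov10l1* had 179, 200 and 135 of 300 bases in exons. Matches and CG counts in these windows thus do not all describe sequence upstream of the annotated gene. The number of CG dinucleotides was 10 in the window of *Stra8* and 15 to 38 in the other 9, with a median of 7 over all windows. A match says only that these letters are present.

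**Figure D1:**
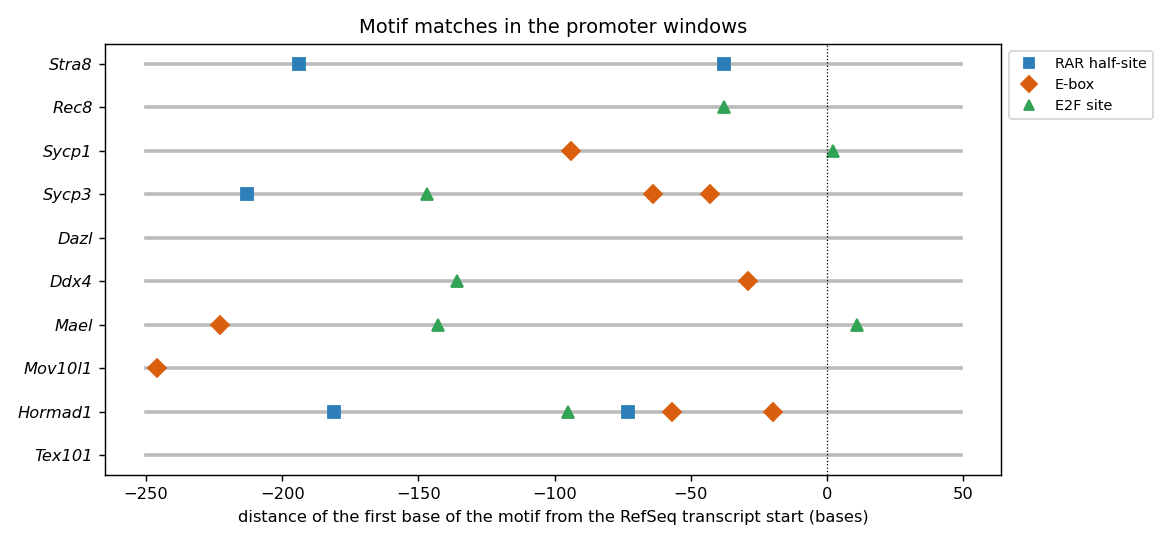
Matches of the RA receptor half-sites, the E-box and the E2F sequence in the promoter windows of the 10 genes. The horizontal axis is the distance in bases of the first base of a match from the RefSeq transcript start, each grey line is 1 window, and *Stra8* holds half-sites alone while *Hormad1* and *Sycp3* hold all 3 kinds.

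*Stra8* (chromosome 6, 34920163 to 34939344, plus strand in GRCm38), the RA-induced regulator of meiotic entry, rose in both genotypes within 1 day of RA and was lower in knockout than in wild-type cells at each day. Before RA, the wild-type libraries held 25.4 and 25.0 TPM of *Stra8* and the knockout libraries 9.01, 10.7 and 11.2 TPM. At day 1 it reached 841, 861 and 905 TPM in wild-type cells and 386, 382 and 421 TPM in knockout cells. By day 3 it had come down to 314, 305 and 281 TPM in wild-type cells and to 209, 221 and 225 TPM in knockout cells. No 2 groups overlapped, and from low to high they stood in the order knockout day 0, wild-type day 0, knockout day 3, wild-type day 3, knockout day 1 and wild-type day 1. These values rest on 75 to 7405 reads per library.

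On the log2(TPM + 1) scale, *Stra8* differed in the knockout by −1.22 with an SE of 0.08 (adjusted p = 5.88e-07 in limma) at day 0, or 2.33-fold lower, and by −1.13 ± 0.07 (adjusted p = 2.10e-07) at day 1. With the libraries scaled to equal medians the day 1 difference was −0.92, which is under 2-fold, and in a fit of the day 0 libraries alone the adjusted p was 0.0506. At day 3 the difference was −0.46 ± 0.07 (adjusted p = 0.00103), which is under 2-fold. The rise from day 0 to day 1 was 5.05 ± 0.08 in wild-type cells and 5.14 ± 0.07 in knockout cells, a difference in response of 0.09 ± 0.11 (adjusted p = 0.695). A p over the threshold does not show that the responses were equal, and *Stra8* was lower in the knockout both before RA and at day 1. From day 1 to day 3 *Stra8* fell by 1.53 in wild-type cells and by 0.86, under 2-fold, in knockout cells, and these changes differed by 0.68 ± 0.10 (adjusted p = 0.000886).

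*Rec8* (chromosome 14, 55618037 to 55625395, plus strand), the meiotic subunit of the cohesin ring, was higher with RA in both genotypes, with a smaller change at day 1 in knockout cells. Without RA, *Rec8* stood at 15.05 and 20.5 TPM in wild-type libraries and at 14.6, 15.3 and 19.4 TPM in knockout libraries, and the groups overlapped. At day 1 the wild-type libraries were at 100.1, 102 and 103 TPM and the knockout libraries at 35.0, 34.5 and 29.6 TPM. At day 3 they were at 323, 314 and 318 TPM and at 259, 257 and 240.1 TPM. The knockout libraries were thus below all wild-type libraries at both days, and by more at day 1.

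For *Rec8* the knockout differed from wild-type by −0.10 ± 0.12 (adjusted p = 0.627) at day 0, by −1.60 ± 0.11 (adjusted p = 3.67e-07 in limma), or 3.03-fold, at day 1 and by −0.34 ± 0.11 (adjusted p = 0.0798) at day 3. The day 1 response was 2.46 ± 0.12 in wild-type cells and 0.97 ± 0.11 in knockout cells, and the difference between them was −1.49 ± 0.16 (adjusted p = 0.000578). From day 1 to day 3 *Rec8* rose by 1.64 ± 0.11 in wild-type and by 2.90 ± 0.11 in knockout cells, which differed by 1.26 ± 0.15 (adjusted p = 0.00021). Over the whole 3 days the responses of 4.10 and 3.87 differed by −0.23 ± 0.16 (adjusted p = 0.425). *Rec8* alone of the 10 genes was highest at day 3 in both genotypes with a rise past 2-fold between day 1 and day 3.

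**Figure D2:**
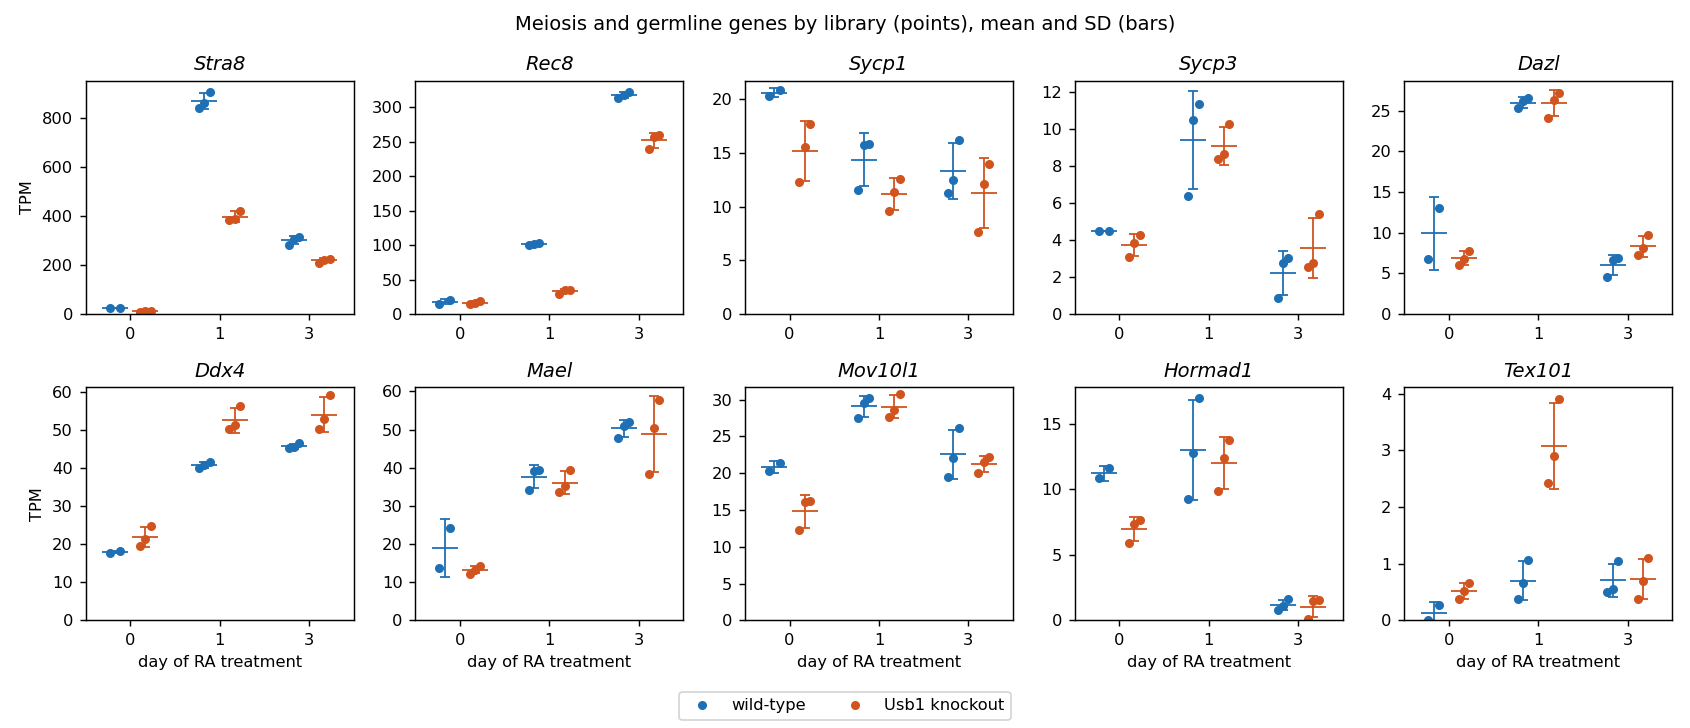
TPM of the 10 genes in each library (points), with the mean and SD of each group, by day of RA treatment for wild-type and *Usb1* knockout cells. Vertical axes start at 0 and differ between panels, *Stra8* peaks at day 1 in both genotypes, *Rec8* climbs through day 3, and *Hormad1* is lowest at day 3.

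Of the genes of the synaptonemal complex and chromosome axis, *Hormad1* and *Sycp3* fell between day 1 and day 3, and *Sycp1* was called in none of the 12 comparisons. *Hormad1* (chromosome 3, 95559677 to 95587671, plus strand) encodes a protein of unsynapsed chromosome axes. Untreated wild-type libraries held 11.6 and 10.8 TPM and untreated knockout libraries 7.64, 7.39 and 5.90 TPM. After 1 day of RA the values were 9.28, 12.8 and 16.9 TPM against 13.7, 12.4 and 9.88 TPM. By day 3 the wild-type libraries held 1.62, 1.10 and 0.805 TPM and the knockout libraries 0.112, 1.58 and 1.48 TPM, which is 1 to 13 reads per library. Every library of day 3 was therefore below every library of day 0 and day 1. The log2 fold change of *Hormad1* from day 1 to day 3 was −2.67 ± 0.29 (adjusted p = 2.82e-06) in wild-type and −2.75 ± 0.29 (adjusted p = 2.02e-06) in knockout cells, and from day 0 to day 3 it was −2.51 and −2.05. The knockout differed by −0.62 ± 0.32 (adjusted p = 0.233) at day 0, where the groups did not overlap.

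*Sycp3* (chromosome 10, 88459569 to 88473236, plus strand), a component of the lateral elements of the complex, was a gene of low read number here. It stood at 4.47 TPM in both wild-type libraries of day 0 and at 4.28, 3.81 and 3.09 TPM in the knockout libraries. Day 1 of RA brought 11.3, 6.38 and 10.5 TPM in wild-type libraries and 10.2, 8.34 and 8.65 TPM in knockout libraries. Day 3 libraries held 0.855, 3.01 and 2.75 TPM (wild-type) and 2.76, 5.40 and 2.52 TPM (knockout), so that day 1 was the highest day in each genotype. The fall from day 1 to day 3 was −1.74 ± 0.30 (adjusted p = 0.000212) in wild-type and −1.19 ± 0.30 (adjusted p = 0.00413) in knockout cells. The rise to day 1 was called in knockout cells (1.09 ± 0.30, adjusted p = 0.0125) and was under 2-fold in wild-type cells (0.89 ± 0.33, adjusted p = 0.0473). It was 0.99 in knockout cells, with an adjusted p of 0.0508, without knockout replicate 3 at day 0.

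Of the 1264 exon bases of *Sycp3*, 660 lie in exons of *Chpt1*, an enzyme gene of phosphatidylcholine synthesis on the opposite strand. The library kit named in the labels does not mark the strand, so reads of *Sycp3* and *Chpt1* there cannot be told apart. *Chpt1* was at 3.72 to 6.06 TPM at day 0, at 12.4 to 18.2 TPM at day 1 and at 8.31 to 11.8 TPM at day 3. It rose by 1.72 ± 0.16 in wild-type and by 1.14 ± 0.15 in knockout cells at day 1, when *Sycp3* was also higher. Its part in the values of *Sycp3* was not tested. The exons of the other 9 genes overlap those of no other gene.

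*Sycp1* (chromosome 3, 102818499 to 102936100, minus strand) encodes the transverse filament of the synaptonemal complex. Wild-type libraries held 20.9 and 20.3 TPM at day 0, 11.5 to 15.9 TPM at day 1 and 11.2 to 16.2 TPM at day 3. In knockout cells it ranged from 12.2 to 17.7 TPM, from 9.61 to 12.6 TPM and from 7.62 to 13.9987 TPM at these days. Both wild-type libraries of day 0 were above all other libraries. The only comparison of *Sycp1* with an adjusted p under 0.05 was that of day 3 against day 0 in wild-type cells, at −0.61 ± 0.23 (adjusted p = 0.0364), which is under 2-fold.

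*Dazl* (chromosome 17, 50279395 to 50293636, minus strand), which encodes an RNA-binding protein needed for germ cell development, rose at day 1 and fell again by day 3 in both genotypes. Untreated wild-type libraries held 13.04 and 6.74 TPM, and untreated knockout libraries held 6.01, 7.78 and 6.76 TPM. The day 1 values were 26.2, 26.5 and 25.3 TPM (wild-type) against 27.2, 24.1 and 26.3 TPM (knockout), and the genotypes overlapped. The day 3 values were 4.58, 6.58 and 6.92 TPM against 7.20, 8.04 and 9.75 TPM, without overlap, a difference of 0.42 ± 0.19 (adjusted p = 0.251). The rise to day 1 was 1.37 ± 0.21 (adjusted p = 0.000154) in wild-type and 1.78 ± 0.19 (adjusted p = 6.67e-06) in knockout cells. The fall to day 3 was −1.96 ± 0.19 (adjusted p = 9.13e-07) and −1.53 ± 0.19 (adjusted p = 1.06e-05). Day 3 against day 0 was −0.59 ± 0.21 (adjusted p = 0.0323), under 2-fold, in wild-type and 0.25 ± 0.19 (adjusted p = 0.312) in knockout cells. The 2 wild-type libraries of day 0 lay apart, and without replicate 2 the wild-type rise was 0.94, which is under 2-fold.

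*Ddx4* (chromosome 13, 112598333 to 112652475, minus strand), which encodes the germ cell helicase VASA, rose at day 1 and was not called between day 1 and day 3. In wild-type cells it went from 18.2 and 17.8 TPM to 41.6, 40.1 and 40.8 TPM and then to 46.6, 45.7 and 45.3 TPM. In knockout cells it went from 21.5, 19.6 and 24.8 TPM to 51.3, 50.3 and 56.3 TPM and then to 53.0, 50.3 and 59.2 TPM. The knockout libraries were above the wild-type libraries at each day without overlap, by 0.27 ± 0.09 (adjusted p = 0.0687), 0.36 ± 0.08 (adjusted p = 0.00762) and 0.23 ± 0.08 (adjusted p = 0.107), all under 2-fold. The rise from day 0 to day 1 was 1.14 ± 0.09 in wild-type and 1.23 ± 0.08 in knockout cells, with adjusted p of 2.40e-07 and 4.50e-08, and the rise to day 3 was 1.305 and 1.27.

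*Mael* (chromosome 1, 166201201 to 166238747, minus strand) and *Mov10l1* (chromosome 15, 88982909 to 89055152, plus strand), the RNA helicase gene of the piRNA pathway, were also higher at day 1. For *Mael*, wild-type libraries of day 0 held 24.3 and 13.7 TPM and knockout libraries 14.1, 13.3 and 12.3 TPM. It was at 34.1 to 39.5 TPM at day 1 in wild-type and at 33.6 to 39.5 TPM in knockout cells. At day 3 it was at 47.9 to 52.0 TPM and at 38.3 to 57.8 TPM. The genotypes overlapped at each day, and *Mael* rose from day 0 to day 3 by 1.41 ± 0.19 (adjusted p = 1.68e-05) in wild-type and 1.79 ± 0.17 (adjusted p = 4.14e-07) in knockout cells. The rise to day 1 was 1.38 ± 0.17 in knockout cells. In wild-type cells it was 1.00 ± 0.19 (adjusted p = 0.000806), just past 2-fold, and it was 0.61 without wild-type replicate 2 at day 0.

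For *Mov10l1*, the untreated libraries held 21.4 and 20.3 TPM (wild-type) and 16.1, 16.2 and 12.2 TPM (knockout). It was at 27.5 to 30.7 TPM in the 6 libraries of day 1 and at 19.5 to 26.1 TPM in those of day 3. The knockout was lower at day 0 without overlap, by −0.47 ± 0.12 (adjusted p = 0.0261), and the genotypes overlapped at day 1 and day 3. The change to day 1 was 0.46 ± 0.12 (adjusted p = 0.00919) in wild-type and 0.93 ± 0.11 (adjusted p = 1.96e-05) in knockout cells, both under 2-fold.

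*Tex101* (chromosome 7, 24668007 to 24676675, minus strand) was near the detection limit except in knockout cells at day 1. Wild-type libraries held 0 and 0.273 TPM at day 0, then 0.663, 0.385 and 1.06 TPM, and lastly 1.04, 0.510 and 0.560 TPM at day 3. Knockout libraries held 0.654, 0.379 and 0.524 TPM, then 2.43, 3.91 and 2.90 TPM, and lastly 0.701, 1.10 and 0.385 TPM. Knockout cells at day 1 had 19 to 32 reads per library, and every other library had 0 to 8. The library listed at 0 allows up to 3 reads, or 0.379 TPM for this gene, by counting error alone. It is wild-type replicate 1 at day 0, with only 239 genes of 1 read. In untreated wild-type cells *Gm4969*, *Msh4*, *Mei1* and *Piwil1* had 0 reads in 1 library and 28, 30, 31 and 43 in the other. The limit of 3 reads may therefore be too low for a 0 in untreated wild-type cells. *Tex101* was higher in knockout than in wild-type cells at day 1 by 1.26 ± 0.23 (adjusted p = 0.00195), and in knockout cells it rose by 1.41 ± 0.23 from day 0 to day 1 and fell by 1.24 from day 1 to day 3. On this scale the pseudocount of 1 understates changes of so low a gene, and the ratio of the mean TPM at day 1 was 4.38. The change from day 1 to day 3 differed between the genotypes by −1.25 ± 0.32 (adjusted p = 0.0316), and this call was lost in 9 of 28 alternatives.

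Set against the table as a whole, the 10 genes were called as follows, where a call needed both a 2-fold change and an adjusted p below 0.05. Between knockout and wild-type cells 1 of the 10 was called at day 0 (*Stra8*), when 3.05% of all genes tested were. At day 1 it was 3 (*Stra8* and *Rec8* lower, *Tex101* higher), with 2.22% of all genes. At day 3 none was called in limma, with 1.29% of all genes, and voom on recovered reads also called none. At an unadjusted p under 0.05 there were 4 at day 3 (*Stra8*, *Rec8*, *Dazl* and *Ddx4*), where 19.08% of all genes tested passed. The median log2 fold change of the 10 genes was −0.42, −0.04 and −0.07 at these days, against 0.00, −0.13 and 0.00 for all genes tested.

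**Figure D3:**
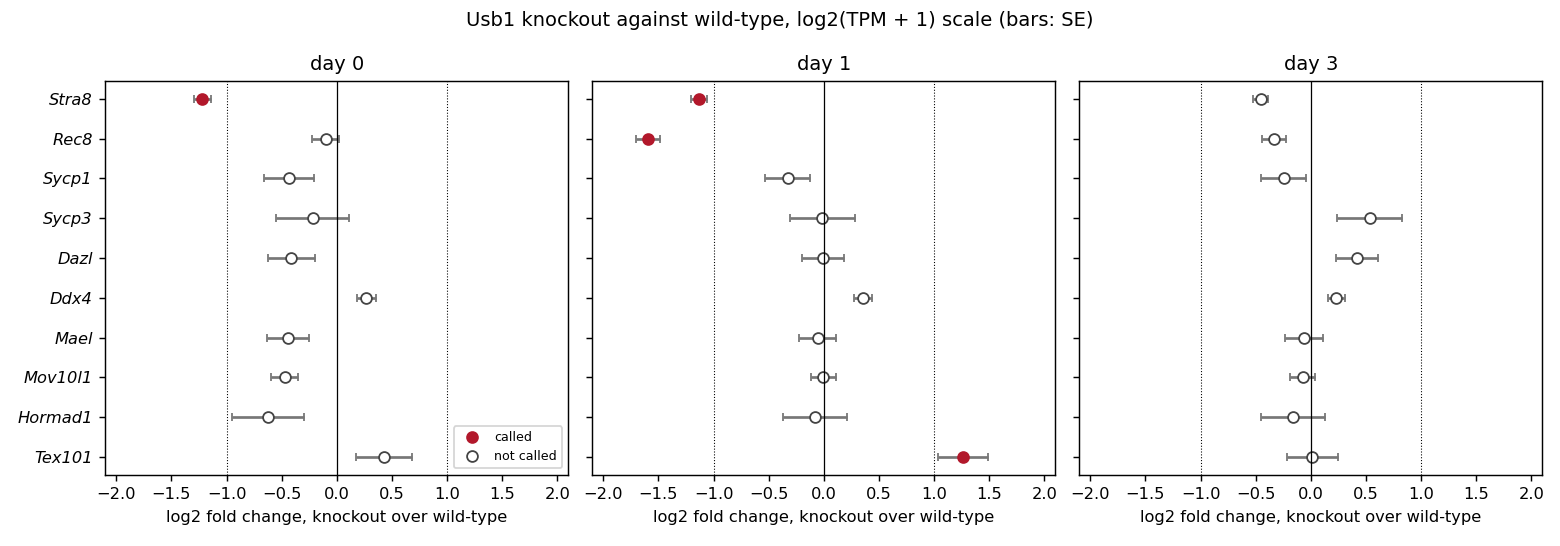
Log2 fold change of *Usb1* knockout over wild-type cells on the log2(TPM + 1) scale for the 10 genes at day 0, 1 and 3. Bars are the SE from limma, filled points passed the call, dotted lines mark a 2-fold change, and the called points are *Stra8* at day 0 and *Stra8*, *Rec8* and *Tex101* at day 1.

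In the response to RA at day 1, 5 genes rose in wild-type cells (*Stra8*, *Rec8*, *Dazl*, *Ddx4* and *Mael*), when 13.9% of all genes were called and 9.99% were called higher. In knockout cells 6 rose (*Stra8*, *Dazl*, *Tex101*, *Mael*, *Ddx4* and *Sycp3*), with 6.95% of all genes called and 4.07% called higher. None of the 10 was called lower at day 1 in either genotype. At day 3 against day 0, 5 genes were called in each genotype, *Stra8*, *Rec8*, *Mael* and *Ddx4* higher and *Hormad1* lower, with 25.8% of all genes in wild-type and 21.9% in knockout cells. Between day 1 and day 3, 5 genes were called in each genotype, with 15.2% and 15.3% of all genes. In both, *Rec8* was higher and *Sycp3*, *Dazl* and *Hormad1* were lower. *Stra8* was called lower in wild-type cells alone and *Tex101* in knockout cells alone. The median of the 10 genes from day 0 to day 1 was 0.94 in wild-type and 1.16 in knockout cells, where that of all genes was 0.17 and 0.02. From day 0 to day 3 it was 0.34 and 0.37, against 0.10 and 0.03.

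The difference between the genotypes in the response to day 1 was called for *Rec8* among the 10, with 0.86% of all genes. For the response to day 3 it was called for none in limma or in voom, with 2.42% of all genes, and 3 of the 10 had an unadjusted p under 0.05 (*Stra8*, *Dazl* and *Mov10l1*), where 22.45% of all genes tested did, a share near that of the 10. For *Stra8* the rise to day 3 was larger in knockout cells by 0.77 ± 0.11 (adjusted p = 0.000983), which is under 2-fold. For the change from day 1 to day 3 the difference was called for *Rec8* and *Tex101*, with 2.25% of all genes. Comparisons with a common day or genotype share libraries, so these calls are not independent of each other.

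**Figure D4:**
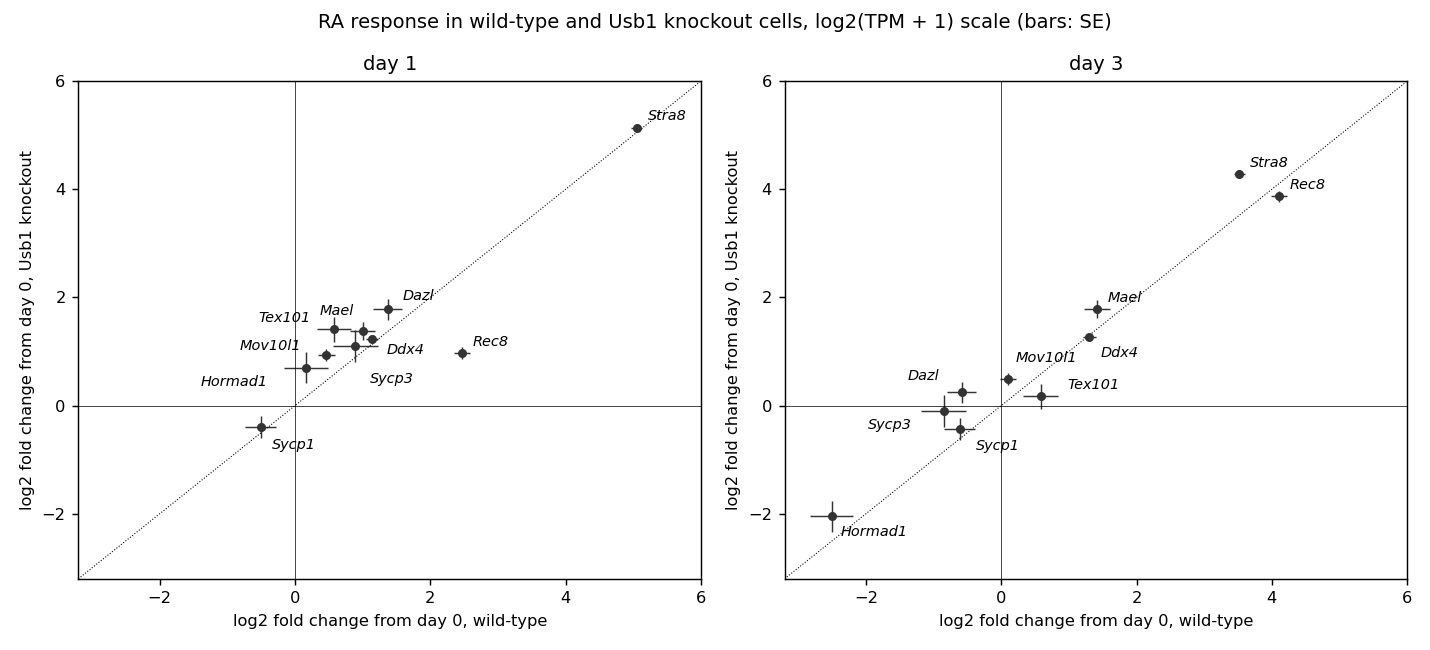
Log2 fold change from day 0 in *Usb1* knockout cells (vertical) against wild-type cells (horizontal) for the 10 genes at day 1 and day 3, on the log2(TPM + 1) scale. Bars are the SE from limma, the dotted line marks equal change, both axes share the same day 0 libraries of their genotype between panels, and *Rec8* at day 1 is farthest below the line.

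A list of 35 other meiosis genes had 31 tested, and 3 were below 1 TPM in every library. At day 1 of RA, 5 rose and 0 fell in wild-type cells, and 3 rose and 1 fell in knockout cells. At day 3, 5 rose and 3 fell in wild-type cells, and 3 rose and 2 fell in knockout cells. Of all genes tested, 25.8% in wild-type and 21.9% in knockout cells were called at day 3. The list's median at day 1 was 0.23 in wild-type and 0.21 in knockout cells, against 0.17 and 0.02 for all genes tested, of which 9.99% and 4.07% were called higher. None was called between knockout and wild-type cells at any day in limma. An adjusted p under 0.05 was reached by 4 (day 0), 3 (day 1) and 4 (day 3) of the 31. Of all genes tested 11.9%, 17.3% and 7.52% reached it at these days. *Meioc*, whose product keeps germ cells in meiotic prophase, climbed like *Rec8*. Its mean was 7.65 TPM at day 0, 23.4 TPM at day 1 and 68.5 TPM at day 3 in wild-type cells and 5.31, 14.6 and 56.7 TPM in knockout cells.

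Among the other genes named from that list, *Sycp2*, a partner of *Sycp3*, rose from 1.74 to 11.3 TPM in wild-type and from 1.15 to 6.55 TPM in knockout cells by day 3. *Brdt*, a bromodomain gene of the testis, was at 1.49, 5.25 and 2.56 TPM in wild-type cells at day 0, 1 and 3. *Tex12*, a central element gene, was at 0.333, 4.26 and 3.24 TPM in wild-type cells, with 0 and 3 reads in the day 0 libraries. In knockout cells it was at 1.19, 3.56 and 3.24 TPM. *Syce2*, another central element gene, fell by 1.24 in wild-type and by 1.26 in knockout cells by day 3. *Majin*, which ties telomeres to the nuclear envelope in meiosis, fell by 1.83 and by 1.03. Genes for parts of 1 structure thus moved in both directions.

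Of 35 other germ cell and piRNA pathway genes, 31 were tested. At day 1, 9 rose and 2 fell in wild-type and 10 rose and 2 fell in knockout cells. At day 3, 6 rose and 12 fell in wild-type and 7 rose and 6 fell in knockout cells. Of all 21871 genes tested, 2185 rose and 848 fell at day 1 in wild-type and 891 and 628 in knockout cells. At day 3 these were 3522 and 2118 in wild-type and 3023 and 1759 in knockout cells. The list's median at day 1 was 0.60 in wild-type and 0.55 in knockout cells, against 0.175 and 0.018 for all genes. *Dmrt1*, a regulator of the entry into meiosis, was highest at day 1 like *Stra8* but fell below its day 0 level by day 3, with mean wild-type levels of 38.7, 92.8 and 14.96 TPM and mean knockout levels of 23.7, 58.7 and 9.33 TPM. *Tdrd7*, a Tudor domain gene of germ granules, rose from 1.56 to 12.2 TPM and from 1.03 to 12.2 TPM by day 3.

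Between the genotypes, 2 genes of that list were called at day 0 and at day 1, both lower in knockout cells. At day 3 there were 3 higher and 1 lower. Of all genes tested, 3.05%, 2.22% and 1.29% were called at day 0, 1 and 3. *Gpat2*, a piRNA pathway gene, was lower in knockout cells by −1.18 at day 0, −1.20 at day 1 and −1.19 at day 3, with adjusted p of 4.22e-05, 5.66e-06 and 1.14e-05. *Piwil4*, a PIWI gene of fetal germ cells, was lower by −1.29 at day 0 and by −1.03 at day 1. *Prdm14* and *Tfap2c*, regulators of primordial germ cells that embryonic stem cells also express, were higher in knockout cells at day 3 by 1.44 and 1.76. *Prdm14* was then at 3.65 to 4.62 TPM in knockout cells and at 0.494 to 1.35 TPM in wild-type cells. *Nanog* and *Esrrb*, of the 7 stem cell markers, were called higher in knockout cells at day 3, by 1.90 and 1.76. Of the 7 there were 6 higher and 1 lower with an adjusted p under 0.05, which 7.52% of all genes tested reached. The lower marker was *Klf4*, at 57.4 to 58.9 TPM in wild-type and 29.2 to 34.5 TPM in knockout libraries, which is under 2-fold. Their part in the values of *Prdm14* and *Tfap2c* was not tested.

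Of 20 PRC1.6 subunits and other silencing factors of germline genes, all tested, 2 rose and 1 fell at day 1 in wild-type cells and 2 rose and 2 fell in knockout cells. At day 3, 2 rose and 5 fell in wild-type cells and 2 rose and 4 fell in knockout cells. Of all genes tested, 13.9% in wild-type and 6.95% in knockout cells were called at day 1, and 25.8% and 21.9% at day 3. The list's median at day 3 was −0.50 in wild-type and −0.25 in knockout cells, against 0.10 and 0.03 for all genes. The genes that rose were *Yaf2* and *Dnmt3a*, and *Yaf2* went from 10.2 TPM at day 0 to 41.2 TPM at day 1 and 63.7 TPM at day 3 in wild-type cells. *L3mbtl2*, a subunit of PRC1.6, fell by 1.46 in wild-type and by 1.18 in knockout cells by day 3. The de novo methyltransferase gene *Dnmt3b* fell by 1.23 and by 1.43, and *Rybp* fell past 2-fold between day 1 and day 3 in both genotypes.

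Of the 20 genes of that list, 1 was called between the genotypes at each day. Of all genes tested, 3.05%, 2.22% and 1.29% were called at day 0, 1 and 3. The 1 called was *Dnmt3l*, the cofactor of de novo DNA methylation, and it was lower in knockout cells at each day. Wild-type libraries held 67.6 to 79.2 TPM against 15.3 to 15.9 TPM in knockout libraries at day 0, at 13.9 to 16.4 TPM against 5.22 to 6.81 TPM at day 1, and at 34.2 to 37.1 TPM against 11.3 to 14.2 TPM at day 3. The log2 fold changes were −2.15, −1.20 and −1.37. *Dnmt3l* was lowest at day 1, the day on which *Stra8* was highest, in both genotypes. Between the genotypes, *Stra8* was lower in knockout cells at each day, as *Dnmt3l* was. A link between these genes was not tested.

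Of 12 genes of RA reception and early RA targets, all tested, 8 rose and 0 fell at day 1 in each genotype. Their median was 3.71 in wild-type and 2.07 in knockout cells. Of all genes tested, 9.99% and 4.07% were called higher then, with medians of 0.175 and 0.018. Between the genotypes at day 1, 4 of the 12 were called lower and 0 higher in knockout cells, with 2.22% of all genes tested called. Genes of the list that were lower in knockout cells at day 1 included *Crabp2* (−2.78), *Hoxb1* (−2.04) and *Stra6* (−1.77). *Cyp26a1*, which degrades RA, was lower in knockout cells at day 0 and day 3 and was at 104 to 118 TPM in wild-type and 107 to 116 TPM in knockout cells at day 1. *Rarb*, an RA receptor that RA induces, was at 6.65 to 7.60 TPM and at 4.23 to 4.48 TPM at day 1. *Crabp2*, *Hoxb1* and *Stra6*, like *Rec8*, had a smaller day 1 response in knockout cells by the test of the difference (−1.94, −2.04 and −1.84). *Cyp26a1* had a larger one by the same test (1.69, adjusted p = 0.00903), from a lower level at day 0. By this test 3 of the 12 were called with a smaller and 1 with a larger response, with 0.86% of all genes tested called.

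Over the 17 libraries, the genes whose log2(TPM + 1) values were most like those of *Stra8* were *Gdpd5* (Pearson's r = 0.98), *Clgn* (0.98), *Dnmt3a* (0.98), *Skida1* (0.98) and *Basp1* (0.98). The libraries fall into 6 groups, so these values mostly describe the group means. *Clgn*, which encodes a chaperone of the testis, was at 31.7, 152 and 115 TPM in wild-type cells at day 0, 1 and 3 and at 22.1, 93.5 and 71.3 TPM in knockout cells. Of the other 9 meiosis and germline genes, *Mov10l1* (0.85), *Mael* (0.85) and *Ddx4* (0.84) were most like *Stra8*, *Rec8* was at 0.65, *Dazl* at 0.59, *Tex101* at 0.45 and *Sycp3* at 0.36, and *Hormad1* (−0.07) and *Sycp1* (−0.44) were least like it.

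Markers of other cell types were also summed. Of 9 Sertoli and gonadal somatic markers 7 were tested, and their summed TPM was 28.9 to 36.9 at day 0, 47.5 to 77.9 at day 1, 197 to 213 in wild-type cells at day 3 and 100.013 to 113 in knockout cells at day 3. The defining genes *Nr5a1* and *Fshr* were at most 0.161 TPM and at 0 TPM in every library, and at day 3 *Gata4* was at 81.7 to 92.7 TPM in wild-type and 21.4 to 30.5 TPM in knockout cells. Between the genotypes at day 3, when 1.29% of all genes tested were called, 2 of these markers were called lower in knockout cells (*Gata4* and *Inha*). The 1 called higher was *Sox9*, at 7.16 to 10.1 TPM in wild-type and 16.95 to 21.2 TPM in knockout libraries. The 7 fibroblast markers summed to 4.65 to 9.01 TPM at day 0 and day 1 and to 44.5 to 80.3 TPM at day 3. Their part in the germline values was not tested. The 7 markers of 2-cell-like cells, a rare state of stem cell cultures, summed to 7.06 to 8.18 TPM in wild-type and 0.956 to 2.62 TPM in knockout cells at day 1, and their part in the lower *Stra8* and *Rec8* of knockout cells was not tested.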

How the data were processed

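RNA-seq values were compared in 17 libraries of wild-type and *Usb1* knockout R1/E cells at day 0, 1 and 3 of RA. The authors deposited TPM per gene, made from NEBNext Ultra libraries sequenced on an Illumina NovaSeq platform. The submitters' processing notes name HISAT2 2.1.0, StringTie 1.3.6 and GRCm38.p6. Reads were recovered from TPM and exon lengths of GENCODE M21 (GRCm38), and 95.9% to 96.7% of the values above 0 were whole within 0.01. Genes that reached 1 TPM in 2 or more libraries were fitted on log2(TPM + 1) with limma (version 3.58.1, R 4.3.3) with 6 group means and a variance trend, and p-values were adjusted by Benjamini-Hochberg over all genes of a comparison. The fit was tested on simulated data. The depth limits genes of low TPM, and 3 reads were taken as the limit that 0 allows. This limit may be too low for untreated wild-type cells.

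The 12 comparisons were the genotypes at each day, the days within each genotype and the differences between these responses. Members and lists were chosen with earlier results of these data known. All 10 genes are named, and from each of 4 lists up to 6 genes were named, those called in the most comparisons. A gene that this rule names is not reported here. *Nanos2*, *Spo11*, *Dmc1*, *Stag3*, *Gm4969*, *Msh4*, *Mei1*, *Piwil1*, *Pou5f1*, *Nanog*, *Esrrb*, *Nr5a1*, *Fshr*, *Gata4*, *Inha*, *Sox9*, *Klf4* and *Chpt1* were named after their values were seen. Alternatives changed the pseudocount, the filter, the call rule, the scaling, the variance model and the libraries, and voom was run on recovered reads. Replicates were independent biological replicates per the paper's methods. Same-numbered replicates were checked for pairing over 40 pairs, and their correlations lay between −0.13 and 0.12, so the numbers were not used as pairs. Tables and figures were made in Python 3.11.15 (matplotlib 3.10.9).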

Additional observations from a re-analysis of the deposited data

Results flagged for a closer look

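Differences between the genotypes in the response to RA were found for 2 of the 10 genes by the test of the difference itself in limma. For *Rec8* the response from day 0 to day 1 was smaller in knockout cells by −1.49 (adjusted p = 0.000578), with all 3 knockout libraries of day 1 below all 3 wild-type libraries. For *Rec8* the change from day 1 to day 3 was larger in knockout cells by 1.26 (adjusted p = 0.00021). For *Tex101* the change from day 1 to day 3 was more negative in knockout cells by −1.25 (adjusted p = 0.0316), with 19 to 32 reads in the knockout libraries of day 1 and 0 to 8 reads in all others. The day 1 libraries enter all 3 differences. Groups held 2 or 3 libraries, so none was large enough to look for a library far from the others of its group.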

How the results depend on the processing

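None of 54 single-gene results with an adjusted p under 0.05 changed direction in 1562 alternatives. In 1502 they kept their side of the call, in 21 (8 genes and comparisons) they lost it and in 39 they gained it. The number of the 10 genes called moved as follows. With the adjusted p alone it was 2 for knockout against wild-type at day 0, 1 at day 3, 8 for wild-type day 3 against day 0 and 1 for the difference in response at day 3 against day 0, where 11.9%, 7.52%, 52.1% and 6.15% of all genes passed. A 1.5-fold minimum gave 8 and 1 for the last 2. This rule also needs the adjusted p. The share of all genes that passed it thus lay between 25.8% and 52.1% and between 2.42% and 6.15%. In the libraries of the comparison alone, knockout against wild-type at day 0 gave 0. That fit held fewer libraries and had its own estimate of the variance, and their parts were not tested. Scaling to equal medians gave 3 in place of 5 for wild-type day 1, without *Ddx4* (0.96) and *Mael* (0.82). The difference in response from day 1 to day 3 was called for 1 gene in place of 2 with a pseudocount of 0.1, a filter at TPM 5, a replicate block or voom. *Tex101* was not tested at TPM 5. The result for Tex101, difference in response, day 3 against day 1, had an adjusted p of 0.0546 with the replicate block and 0.109 with voom, in a range of 0.0115 to 0.157. The block changed no other count.

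Leaving out 1 library at a time gave 3 to 5 for wild-type day 1 (3 without wild-type replicate 2 at day 0), 5 to 6 for wild-type day 3 against day 0, 6 to 7 for knockout day 1 against day 0, 0 to 1 for the difference in response at day 3 against day 0 (1 without that library), and 1 to 2 for the difference from day 1 to day 3. For the latter, *Tex101* lost its call without wild-type replicate 1 or 2 or knockout replicate 2 or 3 at day 1, wild-type replicate 1 or knockout replicate 3 at day 3. Without either untreated wild-type library, the lone other one was assumed to vary like the other groups. Scaling moved all genes: at day 1, knockout against wild-type had 101 genes higher and 384 lower, 169 and 217 after quantile normalization, and 187 and 175 with equal medians. For wild-type day 1 these were 2185 and 848, 1302 and 1231, and 1530 and 1254. Genes of few reads, *Tex101*, *Sycp3* and *Hormad1* at day 3, are limited by depth.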
